A study of Arabidopsis thaliana with 4 samples.

Results

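The Aux/IAA proteins and the auxin response factors (ARFs) were compared between 35S:TEM1 and wild-type (WT) Arabidopsis thaliana. The members were 41 loci, 29 Aux/IAA genes and 12 ARF genes (ARF1 to ARF8, ARF10, ARF16, ARF17 and ARF19), taken by locus identifier from the 32678 loci of the deposited table, and all 41 were in it. Each sample was a pool of 20 whole plants aged 10 days, kept in LD at 22 °C and harvested at ZT18. There were 2 samples of WT plants and 2 of 35S:TEM1 plants, a line that expresses TEM1 from the 35S promoter of a plant virus, which is active in most tissues. The sources used here name neither the number of independent transgenic lines nor separate growth rounds for the pools, so a p-value speaks of the spread between pools, which may be technical.

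Auxin acts by removing repressors. Aux/IAA proteins bind ARFs on DNA and bring in co-repressors of the TOPLESS family, and auxin joins Aux/IAA proteins to the F-box receptors TIR1 and AFB, after which they are degraded and the ARFs are released. ARF5, ARF6, ARF7, ARF8 and ARF19 are known as transcriptional activators and the other ARF members are mostly classed as repressors, while many Aux/IAA genes are themselves induced by auxin. TEM1 (TEMPRANILLO 1) belongs to the RAV transcription factors and is known to delay flowering.

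The overexpressed gene checked the labels. TEM1 (AT1G25560) reached 784 and 827 RPKM in 35S:TEM1 replicates 1 and 2, while WT replicates 1 and 2 had 16.3 and 30.3. Values below follow this order, 35S:TEM1 replicate 1 before replicate 2 and then WT replicate 1 before replicate 2. RPKM divides reads by gene length and by library size, so that levels can be compared between genes. The lowest values put the libraries at an estimated 20.2 to 30.4 M reads. Changes are differences in log2(RPKM + 1), 35S:TEM1 minus WT, with a standard error (SE) and an adjusted p from limma over 17746 genes with a mean RPKM of at least 1, and a gene is called higher or lower at an adjusted p under 0.05. On this scale the changes of low genes come out too small. The median change of all tested genes was 0.12, and values are given without rescaling unless equal sample medians or quantile normalization is named. With equal sample medians the median change was -0.03, so that scaling took off more than 0.12. Of the 41 members 35 were tested.

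Most ARF genes were higher in 35S:TEM1. All 12 were tested, 8 rose, 0 fell and 4 did not pass, where 18.3% of all tested genes were called higher and 7.37% lower. At an unadjusted p under 0.05 there were 11 of the 12, beside 40.4% of all tested genes. The median change of the 12 was 0.45, beside 0.12 over all tested genes. In 11 of the 12 both 35S:TEM1 samples lay above both WT samples, which was so in 47.4% of all tested genes (68% when either direction is counted). Equal sample medians left 6 of the 12 higher and 0 lower, where 10.6% of all tested genes were called higher and 13.5% lower. Leaving out either 35S:TEM1 sample brought the higher ARF genes to 4. In samples of whole plants, more cells of a type and more RNA per cell cannot be told apart.

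**Figure D1:**
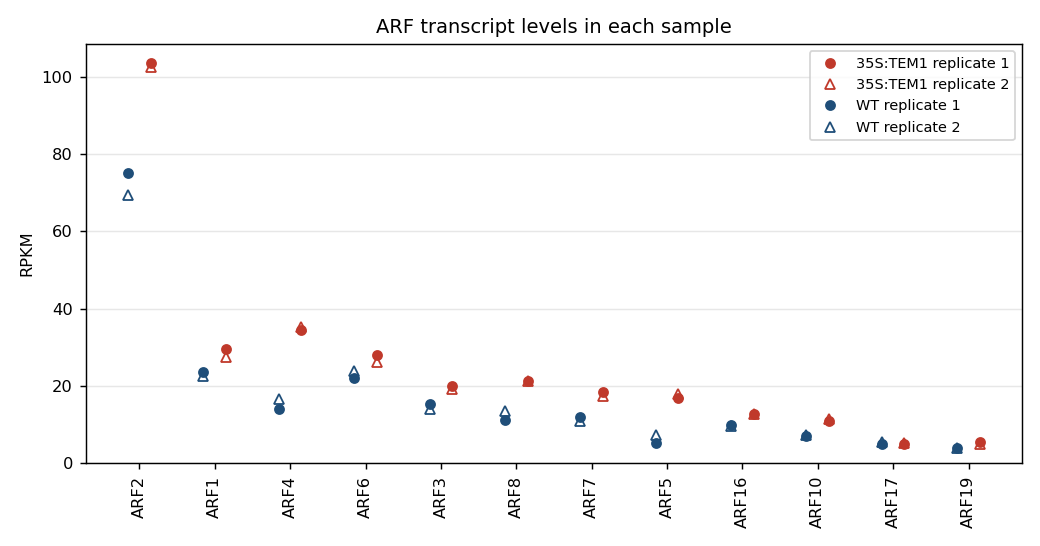
RPKM (linear axis) of the 12 ARF genes in each of the 4 samples, ordered by mean level, with 35S:TEM1 in red, WT in blue, filled circles for replicate 1 and open triangles for replicate 2. ARF2 is the most abundant in every sample, and ARF17 is the gene whose groups overlap.

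Among the activators, ARF5 (MONOPTEROS, AT1G19850), which directs vascular and embryonic root patterning, had the largest change of the family. Its RPKM was 16.9 and 18.01 in 35S:TEM1 plants and 5.34 and 7.27 in WT plants. The groups did not overlap, and the means of 17.4 ± 0.82 and 6.30 ± 1.36 (SD, n = 2 each) differed 2.77-fold (log2 change 1.35 ± 0.14 SE, limma adjusted p = 0.00207). ARF8 (AT5G37020), which acts in flower maturation and hypocotyl growth, had 21.3 and 21.2 against 11.1 and 13.4 in WT, a change of 0.75 ± 0.11 (limma adjusted p = 0.00594). ARF7 (NPH4, AT5G20730), a regulator of tropic bending and lateral roots, had 18.5 and 17.4 against 12.1 and 10.8 (0.61 ± 0.10, limma adjusted p = 0.00786), a call lost without 35S:TEM1 replicate 1. Its partner in lateral root formation, ARF19, had 5.60 and 5.03 against 4.03 and 4.08 and did not pass (0.32, limma adjusted p = 0.0795). ARF6, which acts with ARF8 in flowers, had 28.0 and 26.1 against 22.1 and 24.0 and did not pass either (0.22, limma adjusted p = 0.118). All 5 activators lay higher in both 35S:TEM1 samples, and 3 of them passed the test, beside 47.4% and 18.3% of all tested genes. Of the 7 other ARF members 6 lay higher in this way and 5 passed.

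Among the ARF members classed as repressors, ARF4 (AT5G60450), which acts with ARF3 in the lower side of the leaf, changed most. Its RPKM was 34.5 and 35.1 in 35S:TEM1 plants and 14.2 and 16.7 in WT plants, with means of 34.8 ± 0.44 and 15.4 ± 1.81 (SD, n = 2 each) that differed 2.26-fold (log2 change 1.13 ± 0.10 SE, limma adjusted p = 0.00128). The most abundant member, ARF2 (AT5G62000), which limits seed size and promotes leaf ageing, had 103 and 103 against 75.0 and 69.5 (0.51 ± 0.08, limma adjusted p = 0.00703). ARF3 (ETTIN, AT2G33860) had 20.0 and 19.3 against 15.3 and 14.1 (0.39 ± 0.09, limma adjusted p = 0.0236). The calls of ARF2 and ARF3 went once either 35S:TEM1 sample was left out, and that of ARF3 also without WT replicate 2 and with equal sample medians (0.24) or quantile normalization. ARF1 had 29.5 and 27.6 against 23.6 and 22.7, with no overlap, and did not pass (0.29 ± 0.08, limma adjusted p = 0.0517). It was called higher with the replicate block (limma adjusted p = 0.0316), a mean RPKM of at least 5 (limma adjusted p = 0.0499) and robust variance moderation (limma adjusted p = 0.0475), and its change was 0.14 with equal sample medians (limma adjusted p = 0.252).

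ARF10 (AT2G28350) and ARF16 (AT4G30080), which act together in the root cap and in seeds, were both higher. ARF10 had 11.02 and 11.5 against 7.01 and 7.24 (0.59 ± 0.09, limma adjusted p = 0.00744), a call lost without 35S:TEM1 replicate 2. ARF16 had 12.7 and 12.8 against 9.82 and 9.71 (0.35 ± 0.09, limma adjusted p = 0.0318), and lost its call without any 1 of the 4 samples and with equal sample medians (0.20) or quantile normalization. ARF17, their relative with a role in pollen wall formation, had 4.94 and 5.27 against 4.88 and 5.57. Its groups overlapped, and its change was -0.03 ± 0.11 (limma adjusted p = 0.883).

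The small RNA genes that act on ARF transcripts were examined next. TAS3A (AT3G17185), a non-coding transcript that is cut into the trans-acting small RNAs called tasiR-ARF, is known to lower ARF2, ARF3 and ARF4. Its RPKM was 12.0 and 11.6 in 35S:TEM1 plants and 32.2 and 34.5 in WT plants. The means of 11.8 ± 0.32 and 33.3 ± 1.60 (SD, n = 2 each) put 35S:TEM1 at 0.354 of WT (log2 change -1.42 ± 0.09 SE, limma adjusted p = 0.000384). The precursor fell while all 3 of its known targets rose, and the small RNAs themselves were not measured. Of the other ARF members, ARF5 (1.35), ARF8 (0.75), ARF7 (0.61), ARF10 (0.59) and ARF16 (0.35) also rose. ARF1, ARF6, ARF17 and ARF19 did not pass, but all of these except ARF17 lay higher in both 35S:TEM1 samples. Whether the fall of TAS3A had a part in the rise of its targets was not tested. Within each sample, the ratio of ARF4 to TAS3A was 2.87 and 3.03 in 35S:TEM1 plants against 0.439 and 0.485 in WT plants. The ratio of ARF2 to TAS3A was 8.60 and 8.86 against 2.33 and 2.02, and that of ARF3 to TAS3A was 1.66 and 1.67 against 0.475 and 0.410. A scaling factor of a sample drops out of these ratios, but the fall of TAS3A is in each, and a gene with no change would also give a higher ratio in 35S:TEM1. Their groups did not overlap, and the exact permutation test gave 0.333 for each, the smallest p that 2 against 2 samples can give.

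**Figure D2:**
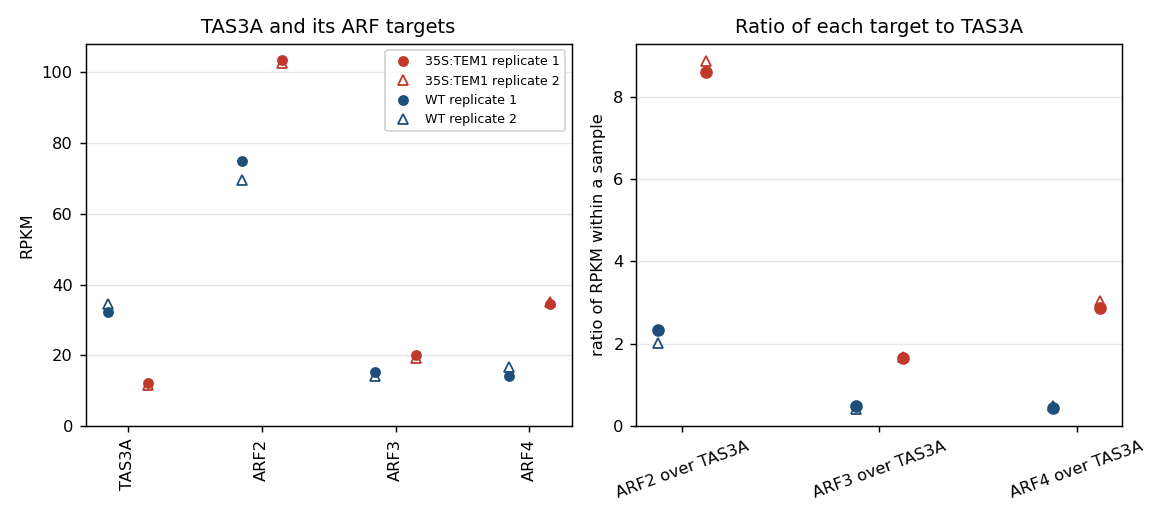
Left, RPKM (linear axis) of TAS3A, ARF2, ARF3 and ARF4 in each sample; right, the ratio of each ARF to TAS3A within a sample, which also carries the fall of TAS3A, with 35S:TEM1 in red, WT in blue, circles for replicate 1 and triangles for replicate 2. TAS3A lies between 11.6 and 12.0 in 35S:TEM1 and between 32.2 and 34.5 in WT, and the 3 ARF genes lie higher in 35S:TEM1.

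The pairing between TAS3A and these ARF transcripts is shown as sequence only, and its part in their changes was not tested. A search of every 21-base stretch of the RefSeq TAS3A transcript found 1 whose complement matched ARF2, ARF3 and ARF4 best, and it paired with coding sequence, at 1 site in ARF2 and at 2 sites each in ARF3 and ARF4. All sequences are from RefSeq's TAIR10.1 assembly, written 5′ to 3′ on the transcript's strand in DNA letters. Capitals mark bases that pair (in the TAS3A stretch, with ARF4 site A), and lower case marks a mismatch or a G:U pair.
TAS3A stretch (chr3:5862205-5862225, plus strand): TTTCTTGACCTTGtAAGACCC
ARF2 site (chr5:24913262-24913282, plus strand): GGGTCTTgCAAGGTCAAGAAt
ARF3 site A (chr2:14325941-14325961, minus strand): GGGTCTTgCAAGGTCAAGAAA
ARF3 site B (chr2:14325821-14325841, minus strand): aGGTCTTgCAAGGTCAAGAAA
ARF4 site A (chr5:24309507-24309527, minus strand): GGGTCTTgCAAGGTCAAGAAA
ARF4 site B (chr5:24309717-24309737, minus strand): aGGTCTTgCAAGGTCAAGAAA
ARF3 site A and ARF4 site A paired at 20 of 21 bases with 1 G:U pair, and the ARF2 site and both B sites at 19 of 21.

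The other ARF members known as small RNA targets differ in their sites, which are shown because some members of each group passed the test and others did not. In miR160 and miR167 capitals mark the seed (bases 2 to 8), and in the sites they mark bases that pair with the miRNA above.
miR160a-5p (chr2:16340282-16340302, plus strand): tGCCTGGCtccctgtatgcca
ARF10 site (chr2:12115741-12115761, plus strand): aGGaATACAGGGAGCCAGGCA
ARF16 site (chr4:14704141-14704161, minus strand): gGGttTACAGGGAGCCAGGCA
ARF17 site (chr1:29274189-29274209, plus strand): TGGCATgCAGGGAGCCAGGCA
miR167a-5p (chr3:8108090-8108110, plus strand): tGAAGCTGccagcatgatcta
ARF6 site (chr1:10686478-10686498, minus strand): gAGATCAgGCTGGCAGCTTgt
ARF8 site (chr5:14633841-14633861, plus strand): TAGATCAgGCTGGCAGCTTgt
The mature miR160a, miR160b and miR160c are identical, and miR167a, miR167b and miR167d share 1 seed. ARF17 paired with miR160a at 20 of 21 bases, ARF10 at 19 and ARF16 at 18, and of these ARF10 and ARF16 rose and ARF17 did not pass. ARF8 paired with miR167a at 18 of 21 bases and rose, and ARF6 paired at 17 and did not pass. The differences between these genes in their changes were not tested.

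Short precursor genes of these miRNAs were mostly near or under the limit of measurement. MIR160C had 1.22 and 1.33 against 0.81 and 2.05 in WT, and MIR167B had 3.27 and 3.16 against 5.78 and 0.91, and both overlapped between groups. MIR167D had 1.42 and 2.67 against 0.53 and 0.93 and did not pass (0.79 ± 0.24, limma adjusted p = 0.0557). MIR160A, MIR167C, MIR390B and MIR393A were listed at 0 in all 4 samples, and 10 of the 14 small RNA genes in the list lay under the expression limit. Precursor levels from such libraries say little of mature miRNAs.

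Calls among the Aux/IAA genes were mostly higher, as over all tested genes. Of the 29 members 23 were tested, of which 7 rose, 1 fell and 15 did not pass, beside 18.3% of all tested genes called higher and 7.37% lower. The median change of the 23 was 0.24, and 12 had an unadjusted p under 0.05, beside 40.4% of all tested genes. Both 35S:TEM1 samples lay above both WT samples in 11 of the 23 and below them in 4, where the shares over all tested genes were 47.4% and 20.7%, close to those of the family. With equal sample medians 5 were higher and 2 lower, and the median change was 0.09. Leaving out 35S:TEM1 replicate 1 gave 4 higher and 0 lower genes, and leaving out WT replicate 2 gave 6 higher and 3 lower. IAA29, IAA30 and IAA32 passed the expression limit through their 35S:TEM1 samples, since both of their WT samples lay under an RPKM of 1.

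**Figure D3:**
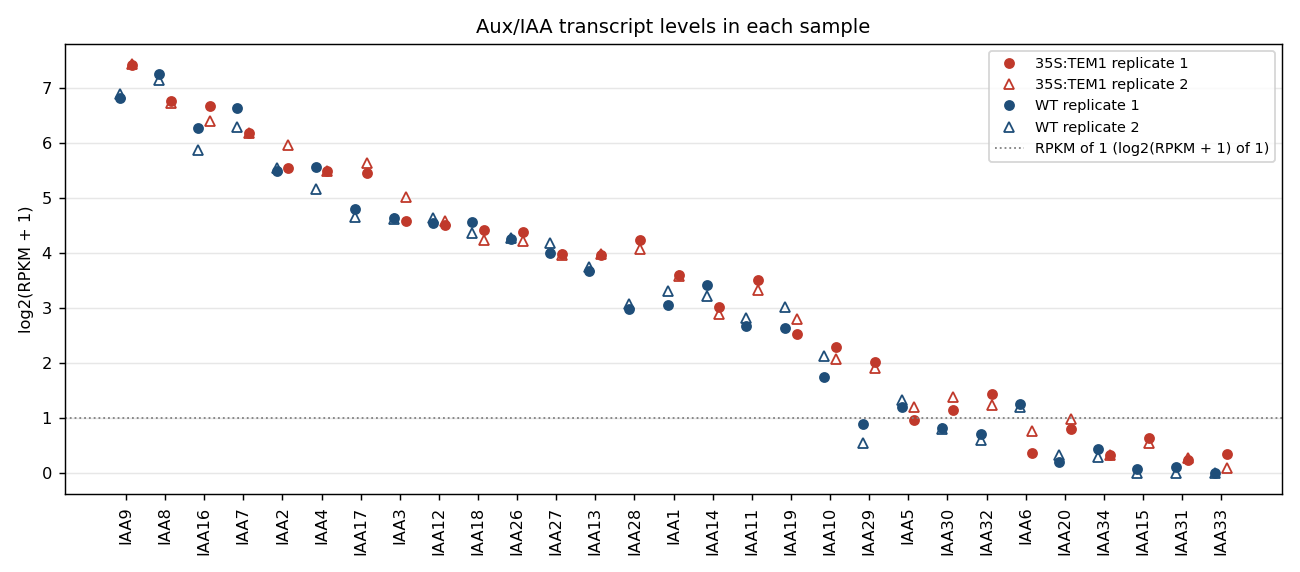
log2(RPKM + 1) of the 29 Aux/IAA genes in each of the 4 samples, ordered by mean level, with 35S:TEM1 in red, WT in blue, filled circles for replicate 1 and open triangles for replicate 2. Levels run from an RPKM of over 100 for IAA8 and IAA9 to near 0 for IAA33, and the red and blue points of IAA28 and IAA29 stand clearly apart.

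Of the 4 Aux/IAA genes with the highest mean RPKM over all samples, IAA9 rose, IAA8 fell, and IAA16 and IAA7 did not pass. The RPKM of IAA9 (AT5G65670) was 171 and 172 in 35S:TEM1 plants and 113 and 118 in WT plants, a rise of 0.57 ± 0.07 (limma adjusted p = 0.00372). Its closest relative IAA8 (AT2G22670) had 108 and 105 against 152 and 142 and was the member that fell (-0.46 ± 0.08, limma adjusted p = 0.00919), a call that went once either 35S:TEM1 sample was left out. The order of the pair was thus inverted, with an IAA9 to IAA8 ratio of 1.59 and 1.63 in 35S:TEM1 and of 0.741 and 0.830 in WT. The longest identical stretch of their transcripts was 27 bases. IAA16 (AT3G04730) had 101.4 and 84.3 against 77.1 and 57.7, with no overlap but wide spread, and did not pass (0.47 ± 0.16, limma adjusted p = 0.0762). It passed without WT replicate 1 and with replicate number as a block. IAA16 and IAA7, described with its neighbour IAA2, had nearly the same mean over all samples (80.1 and 79.96), with IAA16 above IAA7 in both 35S:TEM1 samples and below it in both WT samples.

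IAA29 and IAA28 had the largest log2 changes among the tested Aux/IAA genes, IAA29 with both WT samples under the expression limit. IAA29 (AT4G32280), known to be induced in shade and warmth by PIF transcription factors, had 3.06 and 2.76 against 0.86 and 0.46 in WT. Its means of 2.91 ± 0.21 and 0.66 ± 0.29 (SD, n = 2 each) differed 4.39-fold (log2 change 1.24 ± 0.17 SE, limma adjusted p = 0.00451). IAA28 (AT5G25890), whose stabilised form suppresses lateral roots, had 17.9 and 15.9 against 6.96 and 7.40, a 2.35-fold difference (1.13 ± 0.10, limma adjusted p = 0.00126). IAA11 (AT4G28640) had 10.4 and 9.12 against 5.41 and 6.09 (0.67 ± 0.11, limma adjusted p = 0.00947), a call lost without 35S:TEM1 replicate 1. IAA32 (AT2G01200), an atypical member that lacks the degradation motif, had 1.70 and 1.36 against 0.64 and 0.52 (0.68 ± 0.16, limma adjusted p = 0.0253). The IAA32 call went once either 35S:TEM1 sample was left out, without WT replicate 2 and with both other scalings, and 44.2% of its exon length overlaps exons of AT2G01210 on the opposite strand.

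**Figure D4:**
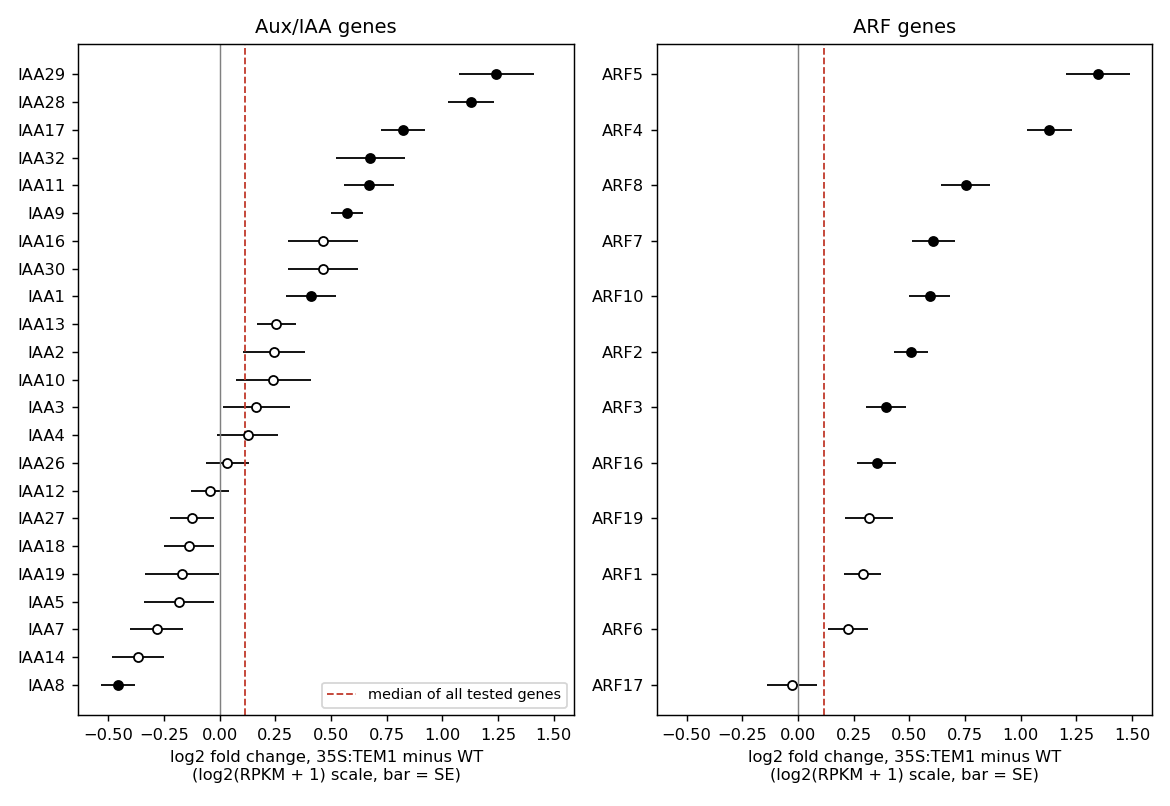
log2 fold change (35S:TEM1 minus WT, log2(RPKM + 1) scale, bars are SE) of the 23 tested Aux/IAA genes on the left and the 12 ARF genes on the right; filled circles have an adjusted p under 0.05, and the dashed line is the median of all tested genes (0.12). The Aux/IAA genes spread from -0.46 to 1.24, and 11 of the 12 ARF genes lie above the dashed line.

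Several Aux/IAA genes lie near a relative on the same chromosome, and these are set side by side. Each of the 3 pairs lies on opposite strands with 1 gene between, IAA17 and IAA3 on chromosome 1 with 6388 bases between them, IAA2 and IAA7 on chromosome 3 with 12510, and IAA1 and IAA14 on chromosome 4 with 10732. IAA17 (AXR3, AT1G04250), whose stabilised form disturbs root gravitropism, had 43.3 and 49.2 against 26.8 and 24.4 (0.82 ± 0.10, limma adjusted p = 0.00313). Its neighbour IAA3 (SHY2, AT1G04240), which restrains cell division in the root meristem, had 23.0 and 31.6 against 24.1 and 23.8, groups that overlapped, and 39.6% of its exon length overlaps exons of AT1G04230 on the opposite strand (0.17 ± 0.15, limma adjusted p = 0.447, and -0.06 without 35S:TEM1 replicate 2). IAA1 (AXR5, AT4G14560) had 11.2 and 10.999 against 7.38 and 8.91 and rose by 0.41 ± 0.11 (limma adjusted p = 0.0437). That call was lost in 7 of the 13 alternatives, among them equal sample medians (0.26). IAA14 (SLR, AT4G14550), whose stabilised form blocks lateral root initiation, had 7.09 and 6.41 against 9.71 and 8.30 and did not pass (-0.37 ± 0.12, limma adjusted p = 0.0629), but was called lower in 4 of the 13 alternatives, namely equal sample medians (-0.52, limma adjusted p = 0.0249), quantile normalization (limma adjusted p = 0.0237), the replicate block (limma adjusted p = 0.0243) and without WT replicate 2 (limma adjusted p = 0.0457).

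In the remaining neighbours neither gene passed. IAA2 (AT3G23030) had 46.2 and 61.7 against 43.9 and 46.0 (0.24, limma adjusted p = 0.241), and IAA7 (AXR2, AT3G23050) had 71.6 and 72.0 against 98.3 and 77.9 (-0.28, limma adjusted p = 0.132). Without WT replicate 2 IAA7 was called lower (-0.45). The IAA17 to IAA3 ratio was 1.88 and 1.55 in 35S:TEM1 plants against 1.11 and 1.03 in WT plants. The IAA1 to IAA14 ratio was 1.59 and 1.72 against 0.760 and 1.07, and the IAA2 to IAA7 ratio was 0.645 and 0.857 against 0.446 and 0.591. Each ratio is written with the gene of the more positive change on top, so their shared direction is no result. In each the groups did not overlap, and the exact permutation p was 0.333, the smallest possible.

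**Figure D5:**
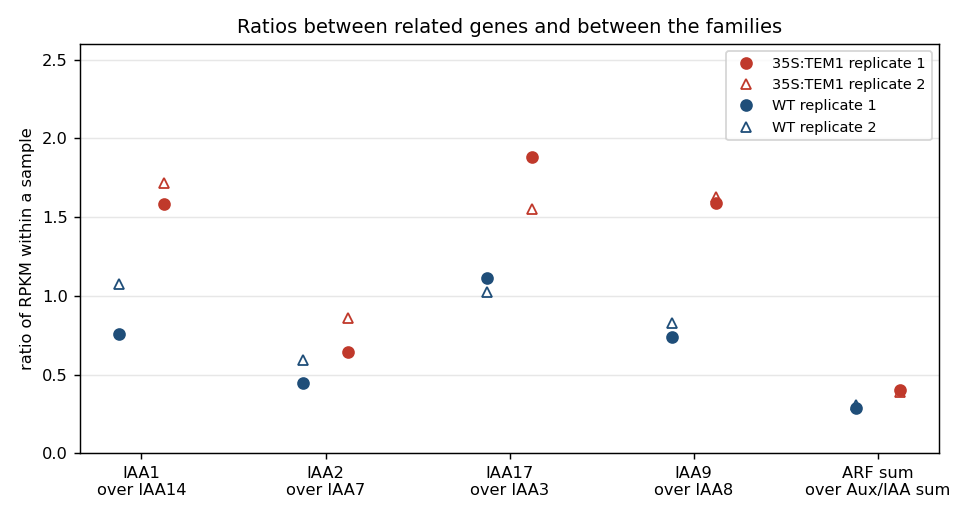
Ratio of RPKM within a sample (linear axis) for the neighbouring pairs, for IAA9 over IAA8 and for the summed ARF over the summed Aux/IAA genes, with 35S:TEM1 in red, WT in blue, circles for replicate 1 and triangles for replicate 2. The direction of a pair follows from which gene is on top, and IAA9 over IAA8 goes from 0.741 and 0.830 in WT to 1.59 and 1.63.

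The other tested Aux/IAA genes changed by -0.18 to 0.46 and did not pass. IAA12 (BODENLOS), the partner of ARF5 in embryonic root formation, had 21.9 and 23.2 against 22.5 and 24.1, and its groups overlapped. IAA19 (MSG2), a partner of ARF7 in hypocotyl bending, had 4.80 and 5.97 against 5.25 and 7.17, and these also overlapped. IAA13, a relative of IAA12, had 14.6 and 14.8 against 11.9 and 12.4, and the groups lay apart (0.26, limma adjusted p = 0.0787). Of the exon length of IAA13, 35.3% overlaps exons of AT2G33300 on the opposite strand. IAA30 had 1.22 and 1.62 against 0.76 and 0.74 (0.46, limma adjusted p = 0.0769). IAA4, IAA5, IAA10, IAA18 and IAA26 overlapped between the groups, and IAA27 lay lower in both 35S:TEM1 samples (14.8 and 14.6 against 15.1 and 17.2).

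The 6 members under the expression limit were IAA6, IAA15, IAA20, IAA31, IAA33 and IAA34. IAA20, an atypical member without the degradation motif, had 0.76 and 0.99 against 0.15 and 0.25 in WT, and IAA6 had 0.30 and 0.69 against 1.39 and 1.299. IAA15 had 0.55 and 0.47 against 0.06 and 0, where 3 reads would correspond to an RPKM of 0.113 and 0.142 in WT replicates 1 and 2. When genes with low values were also tested, IAA15 (0.55, limma adjusted p = 0.0113) and IAA20 (0.64, limma adjusted p = 0.0173) were called higher and IAA6 lower (-0.66, limma adjusted p = 0.0432). IAA31 and IAA33 were listed at 0 in WT replicate 2, and IAA33 also in WT replicate 1, with at most 0.22 and 0.27 in any sample, while IAA34 had 0.22 to 0.35 and overlapped. IAA20 and IAA30 share 52 identical bases and are the members with the longest shared stretch, so reads may not have been fully told apart between them.

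Summed over each family, the ARF genes had 306 and 302 RPKM in 35S:TEM1 plants and 204 and 205 in WT plants, a 1.49-fold difference of the means. The Aux/IAA genes had 764 and 770 against 714 and 662, a 1.11-fold difference, and the log2 ratio of 0.16 became 0.01 with equal sample medians. The ratio of the ARF sum to the Aux/IAA sum was 0.401 and 0.392 in 35S:TEM1 and 0.286 and 0.310 in WT, so within each 35S:TEM1 sample the ARF transcripts were more abundant relative to the Aux/IAA transcripts than in either WT sample. The activators summed to 90.3 and 87.8 against 54.6 and 59.6, and the other ARF members to 216 and 214 against 150 and 146. Their ratio, 0.418 and 0.410 against 0.365 and 0.410, was nearly equal in 35S:TEM1 replicate 2 and WT replicate 2. Each of these comparisons had an exact permutation p of 0.333, the smallest possible here. ARF2 alone made up 33.8% to 36.7% of the ARF sum in every sample, and the 5 ARF genes with the highest mean level 69.8% to 73.5%. IAA9, IAA8, IAA7, IAA16 and IAA2, the 5 with the highest mean level, made up 64.4% to 67.7% of the Aux/IAA sum in every sample, and IAA9 alone went from 15.8% and 17.8% in WT to 22.4% and 22.3%.

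Other genes of the pathway were taken from a list of 56 loci, of which 27 were tested, 10 rose, 2 fell and 15 did not pass, with a median of 0.26, beside 18.3% higher, 7.37% lower and a median of 0.12 over all tested genes. Among the receptors 3 of 6 rose, AFB1 (18.03 and 17.6 against 11.2 and 10.2, a change of 0.69 ± 0.09, limma adjusted p = 0.00439), AFB3 (0.40) and AFB5 (0.40). TIR1, the founding receptor, had 87.3 and 75.3 against 72.5 and 62.6 and did not pass. Of the 5 TOPLESS co-repressor genes 2 rose, TPR1 (26.2 and 25.7 against 17.8 and 15.04, a change of 0.63 ± 0.10) and TPL (0.40). Of 5 genes for the SCF ubiquitin ligase core and its regulators 0 passed in limma, also at an unadjusted p under 0.05. With equal sample medians the higher genes of the whole list numbered 6, where 10.6% of all tested genes were higher, and without 35S:TEM1 replicate 1 or replicate 2 they numbered 4 and 5. AFB3, AFB5 and TPL were among the calls lost in each of these 3 settings.

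Of 11 auxin synthesis genes 4 were tested and all passed, in both directions, where 25.7% of all tested genes were called in either direction. TAA1, which makes indole-3-pyruvate from tryptophan, had 20.7 and 22.6 against 12.3 and 8.38 (1.02 ± 0.17, limma adjusted p = 0.00882). Its relative TAR2 had 6.12 and 5.62 against 8.81 and 9.77 and fell by 0.58 (limma adjusted p = 0.0117). The flavin monooxygenase genes YUC2, with 2.39 and 2.36 against 0.95 and 0.97, and YUC6, with 2.82 and 3.22 against 1.70 and 1.86, rose by 0.79 ± 0.13 and 0.53 ± 0.13, YUC2 with both WT samples under an RPKM of 1. The calls of TAR2, YUC2 and YUC6 went once either 35S:TEM1 sample was left out, and that of YUC6 also without either WT replicate and with both other scalings. The lateral root genes LBD16, LBD18, LBD29 and LBD33, known targets of ARF7 and ARF19, all lay under the expression limit, LBD16 with 0.81 and 0.46 against 0 and 0.04. Of 11 further ARF genes 3 were tested and 2 rose, where 18.3% of all tested genes were called higher. The 2 were ARF18 (21.7 and 19.7 against 8.43 and 7.32, a change of 1.29 ± 0.11, limma adjusted p = 0.000964) and ARF9 (0.52 ± 0.09). ARF12, ARF13, ARF14, ARF21, ARF22 and ARF23 were listed at 0 in all samples.

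Markers of organs moved with these groups. All 8 tested root cell markers of a list of 13 were called higher, beside 18.3% of all tested genes, with a median change of 0.94. CASP2, EXPA7 and PRP3 among them passed the expression limit through their 35S:TEM1 samples, since both of their WT samples lay under an RPKM of 1. The list summed to an RPKM of 84.0 to 90.7 in 35S:TEM1 and of 37.1 to 39.6 in WT. Of 9 leaf epidermis markers 3 were called lower (PDF1, FDH and SPCH) and 0 higher, beside 7.37% and 18.3% of all tested genes. In 5 of the 9 both 35S:TEM1 samples lay below both WT samples, beside 20.7% of all tested genes. MYB60 lay above (11.8 and 9.97 against 9.27 and 7.92) and did not pass. The sums were 415 to 432 against 546 to 651, most of it from PDF1 and FDH. Of 4 leaf mesophyll markers 1 was called lower and 0 higher, beside the same 7.37% and 18.3%, with sums of 33668 to 37307 against 42662 to 42817. No marker of the 3 lists was at 0 in all samples. The part of these differences in the changes of the Aux/IAA, ARF and other pathway genes was not tested.

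Upstream sequence was compared with the calls. The letters TGTCTC, the core to which ARFs are known to bind, were found on either strand in the 250 bases before the RefSeq gene start of 9 of 29 Aux/IAA genes (31.0%), 1 of 12 ARF genes (8.33%) and 10.9% of all 27443 protein-coding genes. The variant TGTCGG was found in 20.7%, 16.7% and 4.16% in the same order. Of RAV-type letters, CAACA was found in 58.6%, 58.3% and 47.4%, and CACCTG in 0 of the 41 members and 2.57% of all genes. Of the 15 members that rose 3 held TGTCTC (IAA1, IAA32 and ARF3), as did the 1 that fell (IAA8). It was also in 3 of the 19 not called and in 3 of the 6 under the expression limit. TGTCGG was in 2, 0, 6 and 0 members in the same order. CAACA was in 6 of the 15 that rose, 0 of the 1 that fell, 14 of the 19 not called and 4 of the 6 under the limit. No window was cut at a neighbouring gene, and those of IAA9, IAA10, IAA32 and IAA34 overlap another gene. The windows of IAA1, which rose, and of IAA8, which fell, are shown because both hold TGTCTC, with the motifs named here in capitals, in either orientation, and written 5′ to 3′ on the gene's strand (TAIR10.1, RefSeq).
IAA1 upstream (chr4:8360746-8360995, plus strand): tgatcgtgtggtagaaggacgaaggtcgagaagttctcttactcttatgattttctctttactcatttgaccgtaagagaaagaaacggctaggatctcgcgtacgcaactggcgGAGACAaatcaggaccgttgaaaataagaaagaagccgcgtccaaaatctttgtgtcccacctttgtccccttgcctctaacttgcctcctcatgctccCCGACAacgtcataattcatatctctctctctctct
IAA8 upstream (chr2:9636096-9636345, plus strand): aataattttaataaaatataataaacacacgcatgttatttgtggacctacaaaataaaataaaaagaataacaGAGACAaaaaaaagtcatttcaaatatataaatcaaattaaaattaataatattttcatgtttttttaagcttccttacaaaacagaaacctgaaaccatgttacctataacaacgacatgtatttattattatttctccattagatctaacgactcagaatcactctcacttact
A match describes these letters only and is no evidence of binding.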

How the data were processed

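The authors deposited RPKM values, 1 column per sample, for 32678 loci. Per the submitters' processing notes, bcl2fastq 1.8.4, FastQC, STAR, Cuffdiff 2.2.1 and the TAIR10 build were used, in an order and for steps that the notes do not state. The strand setting, annotation and read filters are likewise unstated. Without a stated strand setting, reads of overlapping genes on opposite strands may not have been told apart.

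Values were analysed as log2(RPKM + 1) for the 17746 loci with a mean RPKM of at least 1, by a 2-sided limma fit (version 3.58.1, R 4.3.3; variance trend on, no replicate block), with Benjamini-Hochberg adjustment over all of them. The fit had 2 residual and 4.17 prior degrees of freedom. On simulated data for this comparison with 17746 genes, 192 of 200 genes changed by 1 (log2) were recovered, with 15 false calls. The simulation had independent noise, no general shift and only 200 changed genes, unlike the data, in which 25.7% of tested genes were called. It does not speak of changes smaller than 1. Sums and ratios of RPKM used 2-sided exact permutation tests over samples.

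Depth was estimated from loci whose smallest values fitted 1 read over the RefSeq exon length. It came to 20.2 and 27.8 M reads in 35S:TEM1 replicates 1 and 2 and to 30.4 and 24.1 M in WT replicates 1 and 2. The floor of 3 reads covers counting error only. RefSeq TAIR10.1 gave names, overlaps and sequences, with a gene for 31912 of the 32678 loci; the table itself holds no coordinates. Small RNA sites were the windows with the fewest unpaired bases, a G:U pair counting less than a mismatch, in the transcript with the longest coding sequence.

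Genes are named by rule: members past the threshold, the 3 of each family with the highest mean RPKM, the neighbouring pairs, members under the expression limit, and up to 4 called genes of each pathway list. Other members (ARF6, ARF17, ARF19, IAA12, IAA13, IAA19, IAA27 and IAA30) and further pathway genes (TIR1, LBD16, MIR160C, MIR167B and MIR167D) are named to list values. The members and lists were chosen with earlier results of these data known. The alternatives were 2 pseudocounts, 2 filters, leaving out each sample, a replicate block, 2 scalings and 2 variance models.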

Additional observations from a re-analysis of the deposited data

How the results depend on the processing

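Across the 13 alternatives, the calls of IAA9, IAA17, IAA28, ARF4, ARF5, ARF8, ARF18, AFB1, TAA1 and TAS3A were kept in each, and that of IAA29 in each that tested it (a mean RPKM of at least 5 left it out). With either smaller pseudocount all 34 genes with a described change stayed on the same side of the threshold. Leaving out 1 sample gave 4 to 8 higher and 0 to 3 lower Aux/IAA genes, 4 to 7 higher ARF genes, 4 to 11 higher and 1 to 3 lower pathway genes, and 1331 to 2955 higher and 545 to 1417 lower genes of all tested. The single lower Aux/IAA gene became 2 with no filter on low values, with the replicate block and with each of the other scalings (equal sample medians, quantile). Equal sample medians gave 6 higher pathway genes and, over all genes, 1884 higher and 2388 lower, so higher genes were 44.1% of calls in place of 71.3%; quantile normalization gave 2021 higher and 1862 lower. With equal sample medians the log2 ratio of the summed RPKM was 0.00789 for Aux/IAA genes, in place of 0.16. It was 0.42 for ARF genes, 0.49 for activators and 0.39 for the other ARF members, in place of 0.57, 0.64 and 0.54. That scaling took the median change of all tested genes from 0.12 to -0.03. IAA3 turned to -0.0575 without 35S:TEM1 replicate 2; the cause was not tested. The sources do not say what a replicate number stands for, and 2 pairs are too few to settle whether the numbers pair samples. Deviations of same-numbered samples from their group means had a correlation of 0.32 across genes, and a replicate block gave 8 higher and 2 lower Aux/IAA genes, 9 higher ARF genes, 14 higher and 2 lower pathway genes and 4321 higher and 1801 lower genes of all. With 2 samples a group, a limma call rests on few degrees of freedom, and for genes with an RPKM near 0 the depth is the limit.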
